A study of Mus musculus with 4 samples.

Results

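The 66 genes described here encode the glutathione transferases, microsomal glutathione transferases, glutathione peroxidases, peroxiredoxins and thioredoxin proteins of the mouse, together with catalase, both intracellular superoxide dismutases, the subunits of glutamate-cysteine ligase, glutathione synthetase and glutathione reductase. They were taken by symbol from the 22380 protein-coding genes of the GENCODE M1 annotation on the mm9 genome, and peaks of small heterodimer partner (SHP) within 5 kb of their gene bodies were collected. The genes were chosen by symbol with both peak lists already in view, on the presence of peaks, their place, pileup and fold enrichment, so the counts and values below describe these genes and test nothing. Of the 1508 peaks in the vehicle list 19 lay within 5 kb of such a gene, and of the 3155 peaks in the FGF19 list 32 did.

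SHP (Nr0b2) is a nuclear receptor that cannot bind DNA by itself, and ChIP-seq finds it where other proteins hold it on chromatin. FGF19 is an intestinal hormone that signals to the liver after a meal. Male wildtype C57BL/6 mice of 8 to 12 weeks were fasted for 12 h and received vehicle or FGF19 (1 mg/kg) by tail vein, livers were collected 2 h later, and chromatin was precipitated with SHP antibody (sc-30169), after which the precipitated material and the inputs from 3 mice per group were each pooled and sequenced. All animals carried the normal SHP gene, so neither list has a SHP-deficient control here. Each group is therefore a single pooled ChIP library beside a single input, so that differences between the groups have no replicate check and no p-value. Intervals of 95% (Wilson for percentages, exact Poisson for pileups) cover counting error only.

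After duplicate tags were removed the vehicle ChIP library kept 15473647 tags and the FGF19 library 13444078, extended to 240 and 260 bp. Pileup is the number of extended ChIP tags over the summit, and fold enrichment is that pileup plus 1 divided by the local input background plus 1. A pileup of 1.99 with vehicle and 1.87 with FGF19 was expected from the genome-wide tag density. These values were also the lowest input backgrounds of any peak in the respective list. A gene without a peak in a list is a gene where no peak passed the q-value cutoff of 0.05, which does not show that SHP was absent. All 5 hepatocyte genes looked up (Alb, Apoa1, Fgb, Tat and Ttr) had a peak in both lists, whereas 0 of 4 Kupffer cell, 0 of 4 endothelial and 0 of 3 stellate cell genes had a peak in either list, and Sox9, 1 of 3 bile duct genes, had a peak in the FGF19 list.

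Glutathione is the main soluble thiol of the hepatocyte. Glutamate-cysteine ligase makes its precursor, glutathione peroxidases spend it on peroxides, and glutathione transferases couple it to drugs and other electrophiles for export in bile. Peroxiredoxins remove peroxides with electrons from thioredoxin, which thioredoxin reductases recharge with NADPH. Many genes of both systems carry an antioxidant response element, the sequence bound by Nrf2 (Nfe2l2) with a small Maf protein.

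The sequences below show the places in question, with the build mm9 throughout. The antioxidant response element core was searched as TGACNNNGC on both strands within 100 bp of each summit. It was found within that distance at 7 of 32 FGF19 peaks and at 2 of 19 vehicle peaks. The Gclm core ran across the edge of its peak. The sites are printed on the strand that carries the core, with the core in capitals, to show the free letters (N) and the flanks. The other letters of the core were fixed by the search. The Gclc site lies at chr9:77598542-77598570, the Gclm site at chr3:121948331-121948359, the Gstz1 site at chr12:88488415-88488443, the Sod2 site at chr17:13200784-13200812, the Gstm4 site at chr3:107844130-107844158 and the Gstt1 site at chr10:75252657-75252685, all read from the minus strand. The Gstm1 site, in its last exon, lies at chr3:107815457-107815485, and the Prdx2 site, at the neighbouring Junb gene, at chr8:87501943-87501971, both read from the plus strand. The Gstz1 site belongs to a peak whose summit lies in coding sequence of the neighbouring Pomt2 gene.
Gclc: cgcctcaccgTGACTCAGCactctgcgcg
Gclm: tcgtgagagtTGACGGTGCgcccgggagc
Gstz1: tatgacccctTGACGGGGCagcggacaag
Sod2: agcgaagcggTGACCCTGCccgcagcgcc
Gstm1: gagatggggcTGACCAAGCtgcagaaggg
Gstm4: agtagagcctTGACTGGGCaggaagtggg
Prdx2: tgctcctcggTGACGCCGCcccctgtacc
Gstt1: catgcttcagTGACACAGCggttctaagc

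The Gclc core reads TGACTCAGC. These are 21.9% of the FGF19 peaks at these genes (11.0 to 38.8) and 10.5% of the vehicle peaks (2.94 to 31.4), beside 11.9% of all FGF19 peaks, 12.1% of all vehicle peaks and 9.80% of 22350 windows of the same length around coding start sites. Both intervals hold the share of all peaks. The shares depended on the window, at 6.25% and 5.26% within 50 bp of the summit and 31.2% and 26.3% over the whole peak for FGF19 and vehicle. The shares of all peaks and of start-site windows were computed at 100 bp only and cannot be set beside these. A match of these letters is not a bound site.

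The upstream peak of Gclc and the promoter peak of Gclm are printed because they lie at the 2 genes that encode glutamate-cysteine ligase, and each appeared in the FGF19 list only. Capitals mark the antioxidant response element core, here on the plus strand of the genome and so as the reverse complement of the lines above. The Gclc stretch is chr9:77598406-77598606, around a summit 3836 bp before the transcription start site (TSS), and the Gclm stretch is chr3:121948330-121948474, around a summit 39 bp before the TSS.
Gclc upstream: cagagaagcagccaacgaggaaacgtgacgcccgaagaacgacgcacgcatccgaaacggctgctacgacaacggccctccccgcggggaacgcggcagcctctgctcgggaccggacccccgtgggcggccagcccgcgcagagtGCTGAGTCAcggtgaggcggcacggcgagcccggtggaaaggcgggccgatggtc
Gclm promoter: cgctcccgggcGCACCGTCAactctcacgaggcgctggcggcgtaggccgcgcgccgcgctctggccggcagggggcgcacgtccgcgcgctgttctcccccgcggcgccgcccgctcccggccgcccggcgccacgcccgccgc

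A further 3 promoters are shown because they held a peak in both lists (Txndc15 and Sod1) or in the vehicle list only (Txn1). In the Txndc15 stretch, chr13:55815891-55816010 on the plus strand, capitals mark AAGATGGC, which occurred at 2 places within 38 bp of the summits. In the Sod1 stretch, chr16:90220887-90220986 on the plus strand, capitals mark an antioxidant response element core that lies inside the FGF19 peak but more than 100 bp from both summits. In the Txn1 stretch, chr4:57969284-57969433 read from the minus strand, capitals mark GGGGCGGGG, a sequence of the kind bound by SP1.
Txndc15 promoter: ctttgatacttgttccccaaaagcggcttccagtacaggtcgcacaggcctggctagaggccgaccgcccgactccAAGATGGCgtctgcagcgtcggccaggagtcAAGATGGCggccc
Sod1 promoter: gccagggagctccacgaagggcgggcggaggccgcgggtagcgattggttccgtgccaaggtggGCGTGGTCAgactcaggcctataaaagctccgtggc
Txn1 promoter: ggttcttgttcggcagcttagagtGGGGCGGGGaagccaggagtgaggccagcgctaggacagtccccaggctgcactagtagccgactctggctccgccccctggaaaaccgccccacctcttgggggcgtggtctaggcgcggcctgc

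For each of the other motifs searched on both strands, the interval held the share of all peaks in both lists. The SP1 sequence CCCCGCCCC was in 9.38% of the FGF19 peaks at these genes (3.24 to 24.2, all peaks 14.8%), the NF-Y sequence ATTGGC in 12.5% (4.97 to 28.1, all peaks 11.1%), AANATGGC in 9.38% (3.24 to 24.2, all peaks 7.54%), the nuclear receptor hexamer AGGTCA in 6.25% (1.73 to 20.1, all peaks 7.13%) and the E-box CACGTG in 3.12% (0.554 to 15.7, all peaks 6.40%).

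Of the 66 genes, 17 had a SHP peak within 5 kb in the vehicle list (25.8%, 16.7 to 37.4), where 7.93% of all protein-coding genes did. In the FGF19 list 25 had one (37.9%, 27.1 to 49.9), where 16.3% of all protein-coding genes did. A peak in both lists was found for 13 genes (19.7%, all genes 4.31%), in the FGF19 list only for 12 (18.2%, all genes 12.0%) and in the vehicle list only for 4 (6.06%, all genes 3.62%). The 13 genes with a peak in both lists were Cat, Gclm, Gpx1, Gsta3, Gstm1, Gstm2-ps1, Gstz1, Mgst1, Prdx1, Prdx6, Sod1, Txndc15 and Txnl4b. When the FGF19 list was shortened to its 1508 peaks with the smallest q, 17 genes had a peak in each list. All 13 shared genes were still shared, and 4 genes were in the FGF19 list only (Gclc, Prdx2, Txndc11 and Txnl1). The shares of all protein-coding genes are not given for the shortened list, so these counts cannot be set beside the genome.

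**Figure D1:**
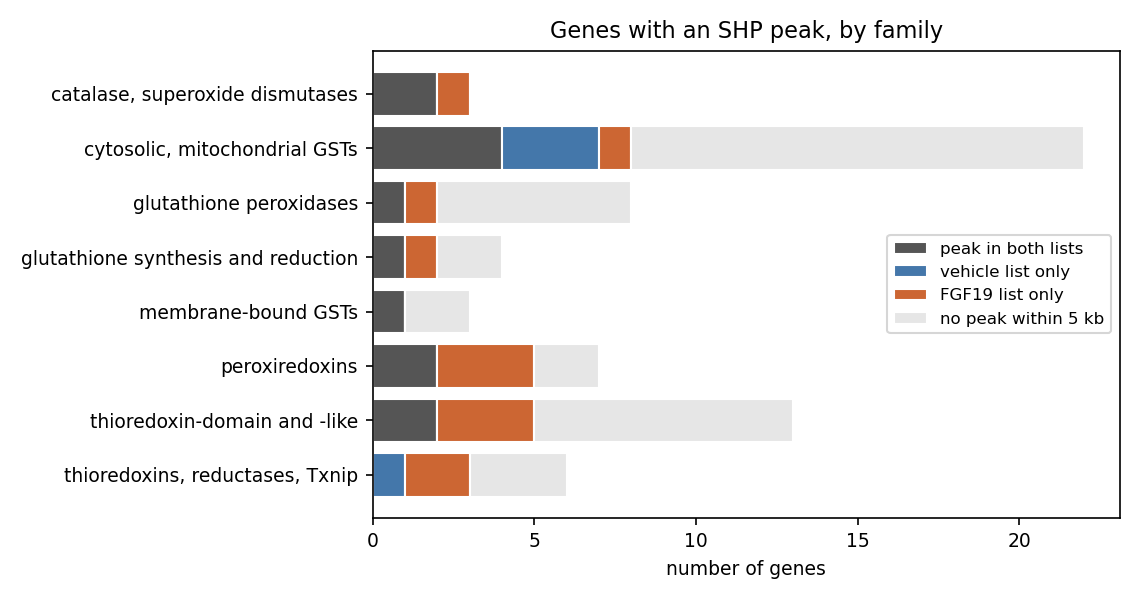
The number of genes (horizontal axis) in each of 8 families, split into genes with a SHP peak within 5 kb in both lists, in the vehicle list only, in the FGF19 list only, or in neither. All 3 genes of the catalase and superoxide dismutase family and 5 of 7 peroxiredoxins had a peak, whereas 14 of 22 cytosolic and mitochondrial glutathione transferases had none.

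By family the counts were small and were not tested against each other. Among the 7 peroxiredoxins, 2 had a peak in the vehicle list and 5 in the FGF19 list. Among the 13 thioredoxin-domain and thioredoxin-like genes, 2 and 5 did, and among the 6 thioredoxin, thioredoxin reductase and Txnip genes, 1 and 2 did with no gene in common. Of the 22 cytosolic and mitochondrial glutathione transferases, 7 had a peak in the vehicle list, where Gsto1 and Gsto2 share 1 peak, and 5 in the FGF19 list, with 4 in both.

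Among peaks in a gene's own body, those of catalase, Mgst1 and Gstm1 had the largest fold enrichments in both lists, and all lay in the last exon rather than at the promoter. Catalase, which breaks down hydrogen peroxide in peroxisomes, had its peak at chr2:103294215-103295005 in the vehicle list, with the summit in the 3′ untranslated part of exon 13 of 13 and 30811 bp from the TSS. The pileup there was 65 (50.2 to 82.8) with vehicle and 58 (44.0 to 75.0) with FGF19, and the fold enrichment was 14.81 and 13.32, rank 15 of 1508 and rank 17 of 3155. The summits of the catalase peaks in the 2 lists were 3 bp apart. Weaker catalase peaks were found in coding exon 7 with vehicle (pileup 26, fold enrichment 3.99) and in coding exon 9 with FGF19 (pileup 20, fold enrichment 3.72).

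Mgst1, a glutathione transferase of the endoplasmic reticulum and mitochondrial outer membrane, had the highest pileup of the FGF19 peaks inside these genes. Its peak in coding exon 4 of 4 had a pileup of 71 (55.5 to 89.6) with vehicle and 84 (67.0 to 104) with FGF19, and fold enrichments of 12.68 and 12.40. A vehicle peak in coding exon 2 of Mgst1 had a pileup of 32 and a fold enrichment of 5.65, with no FGF19 counterpart. The fold enrichment in exon 4 was thus lower with FGF19 by 0.03 on the log2 scale while the pileup was higher by 0.24.

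The soluble glutathione transferases with a peak in their own last exon were Gsta3, Gstm1, Gstm4 and Gstz1. Gsta3, an alpha-class enzyme abundant in liver, had a fold enrichment of 6.80 with vehicle and 7.65 with FGF19 (pileup 34 and 36) in exon 7 of 7. Gstm1, the mu-class enzyme, reached 11.02 and 11.69 (pileup 42 and 39) in exon 8 of 8. Gstz1, which isomerises maleylacetoacetate in tyrosine breakdown, had 4.66 and 6.79 (pileup 20 and 24) in exon 9 of 9. All 3 were in the 3′ untranslated part of the exon and in both lists. Gstm4, a neighbour of Gstm1, had a single weak peak in exon 8 with FGF19 (pileup 13, fold enrichment 3.86).

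The Gstm2-ps1 peak lay at a sequence that repeats Gstm1. Gstm2-ps1 is annotated as protein-coding on chromosome 5 despite its name, and its peak had a pileup of 22 (13.8 to 33.3) with vehicle and 29 (19.4 to 41.6) with FGF19, with fold enrichments of 7.69 and 10.44. The whole vehicle interval, chr5:117082991-117083421, matched the spliced Gstm1 transcript without a gap over 431 of 431 bp at 98.1% identity and ran across 5 of its exon junctions. The FGF19 interval of 604 bp matched at 98.0% across 7 junctions, and the next closest transcript, Gstm3, matched at 92.3% and 90.6%. The last-exon peak of Gstm1 also had a copy beside Gstm2-ps1, of 488 bp at 96.3% identity for the vehicle peak. The 121 bases around the vehicle summit, chr5:117083166-117083286 on the minus strand, are printed with the matching bases of exons 5 to 6 of Gstm1, and the 1 base that differs is in capitals.
Gstm2-ps1: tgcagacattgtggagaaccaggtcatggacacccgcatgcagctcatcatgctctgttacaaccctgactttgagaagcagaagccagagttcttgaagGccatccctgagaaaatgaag
Gstm1 exons 5 to 6: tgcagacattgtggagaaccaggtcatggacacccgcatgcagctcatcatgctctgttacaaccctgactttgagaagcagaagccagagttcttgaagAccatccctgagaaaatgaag

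How tags that fit both copies were placed is not given in the sources used here, and the peaks at Gstm1 and Gstm2-ps1 are given as uncertain. The Sod1 peak had a copy of 182 bp at 95.1% identity at the pseudogene Gm8566 on chromosome 6, and is uncertain in the same way. The other peaks at these genes had no copy of at least 100 bp at 95% identity elsewhere in the genome.

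Prdx1 and Prdx6 had last-exon peaks in both lists. Prdx1, the main cytosolic peroxiredoxin, had pileups of 41 with vehicle and 40 with FGF19 and fold enrichments of 4.11 and 5.15 in exon 6 of 6. Prdx6, which uses glutathione in place of thioredoxin, had pileups of 24 and 25 in exon 5 of 5. Fold enrichment at Prdx6 was 4.32 with vehicle and 8.97 after FGF19, and the local input background was 4.79 and 1.90 tags. The FGF19 background there was close to 1.87, the lowest of that list. The pileup at Prdx6 was thus nearly the same in both lists while the background differed. The summits were 213 bp apart, so these backgrounds belong to different positions and do not compare the inputs at one place.

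**Figure D2:**
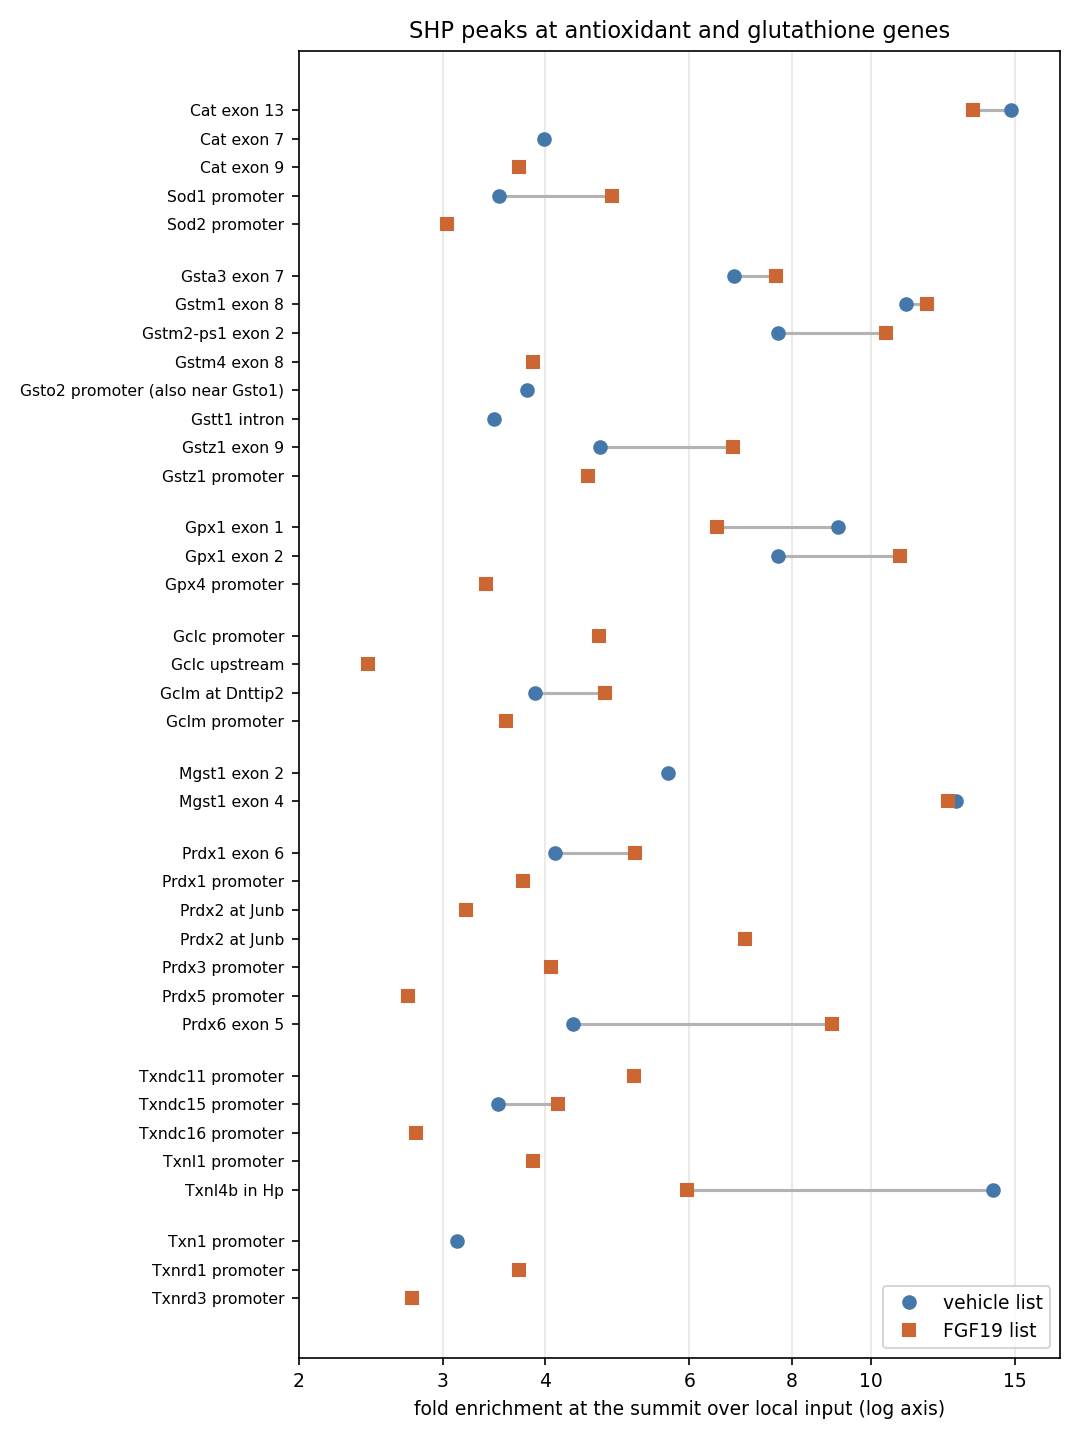
Fold enrichment over local input (horizontal log axis) at each of 37 regions with a SHP peak, grouped by family, for the vehicle list (circles) and the FGF19 list (squares), with a grey line joining regions called in both. Both symbols are carried by 14 regions, the vehicle symbol alone by 5 and the FGF19 symbol alone by 18, and the largest values sit at Cat exon 13, Mgst1 exon 4, Gstm1 exon 8 and the Hp exon beside Txnl4b.

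Of the 8 glutathione peroxidases, Gpx1 and Gpx4 had a peak, and the Gpx1 peaks included 1 in its last exon. Gpx1, the cytosolic selenoenzyme and the most abundant glutathione peroxidase of liver, spans little more than 1 kb and had 1 peak in each of its 2 exons in both lists. Exon 1 had a pileup of 48 (35.4 to 63.6) with vehicle and 50 (37.1 to 65.9) with FGF19, and exon 2 had 73 (57.2 to 91.8) and 69 (53.7 to 87.3). Fold enrichment in exon 1 was 9.11 and 6.49 and in exon 2 was 7.70 and 10.85, so the exons changed order between the lists while their pileups did not. Gpx4, which reduces lipid hydroperoxides in membranes, had an FGF19 peak 47 bp from a TSS (pileup 25, fold enrichment 3.39). The nearest vehicle peak was 7077 bp from the Gpx4 gene. Gpx2, Gpx3, Gpx5, Gpx6, Gpx7 and Gpx8 had no peak.

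More of these genes had a promoter peak in the FGF19 list, which is also the longer list (3155 peaks against 1508). With the summit within 1 kb of the gene's own TSS, 17 genes (25.8%) had a promoter peak in the FGF19 list, where 12.5% of all protein-coding genes did, and 6 genes (9.09%) in the vehicle list, where 5.52% did. With FGF19 only, 13 genes had one (19.7%, all genes 9.91%), namely Gclc, Gclm, Gpx4, Gstz1, Prdx1, Prdx3, Prdx5, Sod2, Txndc11, Txndc16, Txnl1, Txnrd1 and Txnrd3. The Gstz1 promoter peak (pileup 29, fold enrichment 4.51) lay 148 bp outside the gene, with its summit 286 bp before the TSS. That summit was in coding sequence of Pomt2 and 470 bp from the Pomt2 TSS, so the peak cannot be given to either gene alone. Gpx1, Gstm2-ps1, Sod1 and Txndc15 had one in both lists, and Gsto2 and Txn1 with vehicle only. The Gpx1 and Gstm2-ps1 summits lay in coding exons of very short genes. Nearly any summit inside these genes falls within 1 kb of the TSS, so there the rule does not separate promoter from gene body. The 13 peaks with FGF19 only were modest, with pileups of 19 to 29 (median 24.0), fold enrichments of 2.72 to 5.14 (median 3.72) and a median percentile of 34.8 by fold enrichment among all FGF19 peaks. Their −log10 q was between 1.84 and 8.99 (median 4.59). In the shortened FGF19 list, with a −log10 q of at least 5.33, 8 genes had a promoter peak. Of the 13 genes above it kept Gclc, Gstz1, Txndc11 and Txnl1, and the others, Gclm among them, dropped out. The count thus depends on how far down the longer list is read, and the share of all genes at that length is not given.

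Both genes of glutamate-cysteine ligase, the enzyme that sets the rate of glutathione synthesis, had a promoter peak with FGF19 and none with vehicle. Gclc, the catalytic subunit, had a peak 459 bp after its TSS (pileup 20, fold enrichment 4.65) and the upstream peak printed above. That upstream peak (pileup 24, fold enrichment 2.43) had the lowest fold enrichment of all 32 peaks. Its −log10 q was 1.64, where the smallest in the FGF19 list was 1.31. Gclm, the modifier subunit, had a peak 39 bp before its TSS (pileup 25, fold enrichment 3.58). A region 4401 bp beyond Gclm in the vehicle list and 4261 bp in the FGF19 list also counted for Gclm, with pileups of 19 in both lists, but its summits lay 174 and 33 bp from the TSS of Dnttip2. Gss and Gsr, for glutathione synthetase and reductase, had no peak.

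The superoxide dismutases had promoter peaks. Sod1, the cytosolic copper and zinc enzyme, had pileups of 26 with vehicle and 25 with FGF19 and fold enrichments of 3.51 and 4.83, with summits 94 and 123 bp after the TSS. Sod2, the mitochondrial manganese enzyme, had a peak with FGF19 only, 149 bp after the TSS (pileup 21, fold enrichment 3.03), and its printed core lies within it.

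Among peroxiredoxins, promoter peaks with FGF19 only were found at Prdx1 (pileup 24, fold enrichment 3.76), at Prdx3 of the mitochondria (22 and 4.07) and at Prdx5 (27 and 2.72). The Prdx5 summit was 22 bp from the TSS of Trmt112, so that peak cannot be given to either gene alone. Both FGF19 peaks of Prdx2 lay beyond its end and within 1 kb of the TSS of Junb, an AP-1 subunit, with pileups of 22 and 44 and fold enrichments of 3.20 and 7.01. Prdx4 and Prdx6b had no peak.

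The thioredoxin system was split between the lists. Txn1, thioredoxin itself, had a promoter peak with vehicle only, 44 bp before the TSS (pileup 26, fold enrichment 3.12, −log10 q 3.37). Txnrd1, the cytosolic thioredoxin reductase, had one with FGF19 only, 140 bp after a TSS (pileup 20, fold enrichment 3.72). Txnrd3 had one with FGF19 only as well (pileup 23, fold enrichment 2.75). Txn2, Txnrd2 and Txnip, the thioredoxin-binding protein, had no peak.

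Among the genes named for a thioredoxin domain or thioredoxin likeness, Txndc15 had the highest promoter pileup, 46 (33.7 to 61.4) with vehicle and 32 (21.9 to 45.2) with FGF19, with fold enrichments of 3.50 and 4.14. Txndc11 (pileup 28, fold enrichment 5.14), Txnl1 (27 and 3.86) and Txndc16 (19 and 2.78) had promoter peaks with FGF19 only, and the Txndc16 summit was also 181 bp from the TSS of Gpr137c. Txnl4b was counted through a peak 1092 bp beyond it with vehicle and 1110 bp with FGF19, in a coding exon of Hp, the plasma protein haptoglobin. That peak had pileups of 70 and 88, fold enrichments of 14.11 and 5.96, and input backgrounds of 4.03 and 13.93 tags, read at summits 180 bp apart. Txnl4a, Txndc2, Txndc3, Txndc5, Txndc8, Txndc9, Txndc12 and Txndc17 had no peak.

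A peak with vehicle only was found at 4 genes. Beside Txn1, these were the omega-class Gsto1 and Gsto2, which share 1 peak 16 bp from the Gsto2 TSS (pileup 21, fold enrichment 3.80), and the theta-class Gstt1, with an intron peak 7612 bp from its TSS (pileup 19, fold enrichment 3.46). Their −log10 q was between 2.87 and 3.97. No peak was found for Gsta1, Gsta2, Gsta4, Gstk1, Gstm2, Gstm3, Gstm5, Gstm6, Gstm7, Gstp1, Gstp2, Gstt2, Gstt3, Gstt4, Mgst2 or Mgst3. At the edge of the 5 kb window, the Gclm region at Dnttip2 was the farthest inside, and Gstt3, with its nearest peaks at 8475 bp with vehicle and 9586 bp with FGF19, and Txndc11, with its nearest vehicle peak at 9298 bp, were among the nearest outside.

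Many of the summits lay in exons away from a TSS. In the vehicle list 10 of 19 summits were in an exon and over 1 kb from any TSS (52.6%, 31.7 to 72.7), beside 17.1% of the other 1489 peaks (15.2 to 19.1). In the FGF19 list 10 of 32 were (31.2%, 18.0 to 48.6), beside 8.45% of the other 3123 peaks (7.53 to 9.48). Of those summits, 8 of 10 with vehicle and 9 of 10 with FGF19 were in the last exon of a coding transcript, beside 64.2% and 67.0% for the exon summits of other peaks. In each list they include the Hp coding exon counted through Txnl4b and the Gstm1 peak given as uncertain above. Both also enter the exon medians and exon overlap below. At the 5 hepatocyte genes looked up, 18 of 20 vehicle peaks and 17 of 18 FGF19 peaks were in an exon away from a TSS, most of them in coding exons. Summits within 1 kb of any TSS made up 42.1% of the vehicle peaks (23.1 to 63.7, other peaks 73.1%) and 65.6% of the FGF19 peaks (48.3 to 79.6, other peaks 82.0%).

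**Figure D3:**
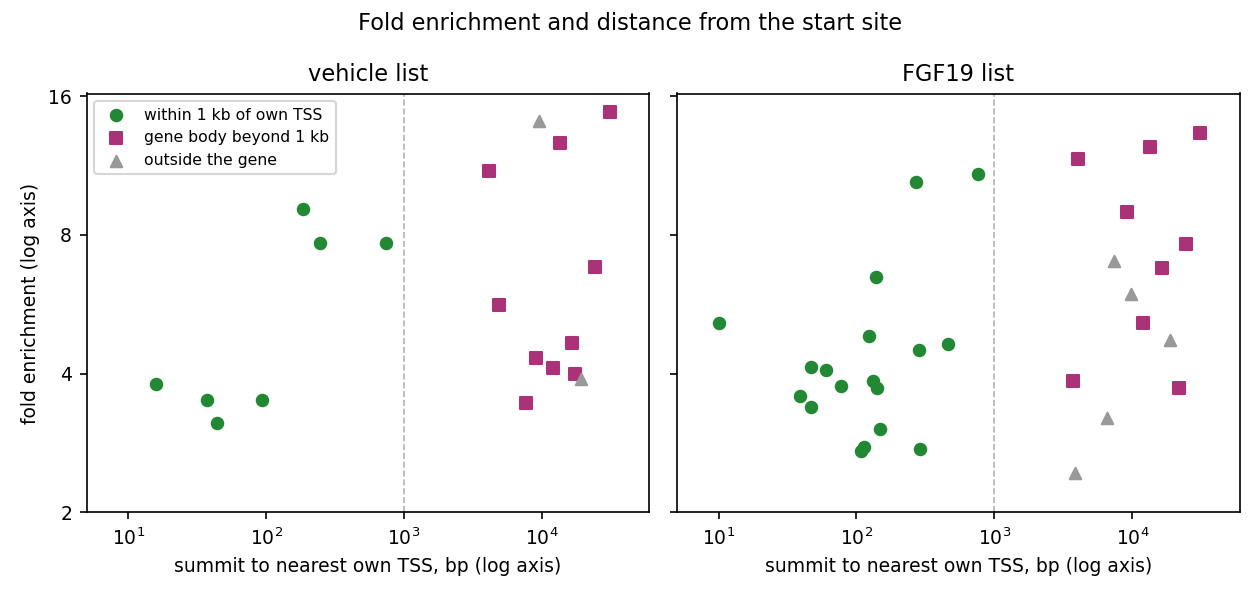
Fold enrichment (vertical log axis) against the distance of the summit from the gene's nearest own TSS (horizontal log axis, in bp) for each peak of the vehicle list (left) and the FGF19 list (right), with colour for the place of the summit and a dashed line at 1 kb. The values above 11 in both lists belong to last-exon peaks of Cat, Mgst1 and Gstm1 and, with vehicle, to the Hp exon, while most promoter peaks sit below 6.

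Fold enrichment followed the same division. Exon peaks away from a TSS had a median fold enrichment of 6.23 with vehicle and 7.22 with FGF19 (5.35 and 5.03 for other peaks of that kind), whereas peaks within 1 kb of a TSS had medians of 3.84 and 4.07 (3.97 and 3.97 for other peaks). The median pileup over all peaks at these genes was 32.0 with vehicle and 25.0 with FGF19, and 24.0 for the other peaks of both lists.

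Overlap between the lists was counted by place as well. Of the 10 exon peaks in each list, 8 were overlapped by a peak of the other list (80.0%, 49.0 to 94.3, beside 66.5% and 63.3% of other exon peaks). Among peaks within 1 kb of a TSS, 6 of 8 vehicle peaks (75.0%, 40.9 to 92.9, other peaks 42.6%) and 6 of 21 FGF19 peaks (28.6%, other peaks 18.3%) were overlapped. These included both coding-exon peaks of Gpx1 and the coding-exon peak of Gstm2-ps1 in each list. All told, 14 of 19 vehicle peaks were overlapped (73.7%, 51.2 to 88.2, other peaks 45.1%) and 14 of 32 FGF19 peaks (43.8%, 28.2 to 60.7, other peaks 21.5%).

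At the 14 regions called in both lists, the ChIP pileups of vehicle and FGF19 were within counting error of each other. The pileup ratio scaled for the genome-wide expectation ranged from 0.74 at Txndc15 to 1.40 at Gstm2-ps1, and the exact binomial 95% interval held 1 at all 14 regions. The intervals were wide, such as 0.53 to 2.12 at the Gclm region and 0.91 to 1.75 at Mgst1. An interval that holds 1 therefore does not show an unchanged pileup, and the same count is not given for other common regions. The median of the scaled ratio on the log2 scale was 0.12, beside 0.09 at the 664 other common regions. Fold enrichment was higher with FGF19 at 10 of 14 regions, with a median log2 ratio of 0.26 and extremes of 1.05 at Prdx6 and −1.24 at the Hp exon beside Txnl4b, beside a median of −0.02 and 319 of 664 higher at other common regions.

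The input background was computed from pileup and fold enrichment, so the parts below split the log2 fold enrichment ratio by arithmetic. Values were read at each list's own summit. Summits were at most 100 bp apart at 11 of 14 regions. They were 213, 207 and 180 bp apart at Prdx6, the Gclm region at Dnttip2 and the Hp exon. At those regions the backgrounds of the lists belong to different positions. The background was higher with FGF19 at 3 of 14 regions (median log2 ratio −0.31), beside 342 of 664 other common regions (median 0.02). At 12 of 14 the background made the larger part of the log2 fold enrichment ratio. At 5 regions the ratios of fold enrichment and of scaled pileup pointed in opposite directions. Neither count is given here for the other common regions. At Txndc15 the pileup part was −0.51 and the background part 0.75 on the log2 scale, and at the Hp exon they were 0.33 and −1.57. Gstm2-ps1 and Cat were the only regions of the 14 where the pileup part was the larger, at 0.38 and −0.16. At Gstm2-ps1 the backgrounds of 1.99 and 1.87 were the lowest of each list and equal to the genome-wide expectation. Its background part is therefore only the difference between those lowest values.

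**Figure D4:**
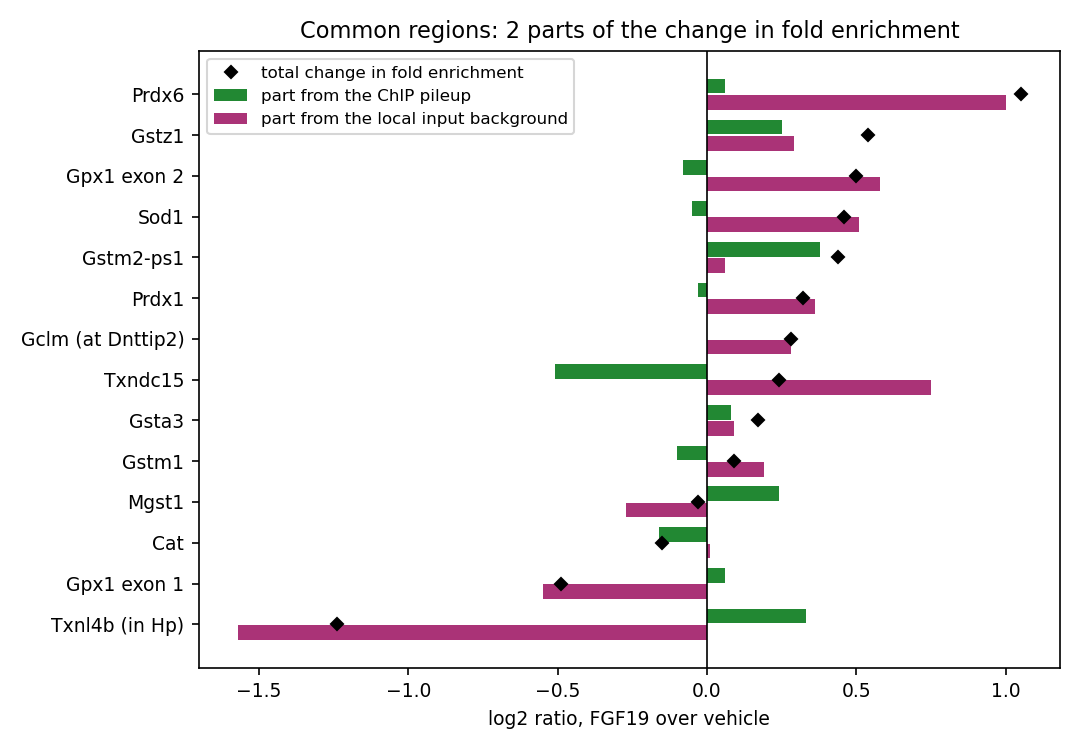
The log2 ratio of fold enrichment, FGF19 over vehicle (diamonds), at the 14 regions called in both lists, with the parts that come from the ChIP pileup plus 1 (green bars) and from the local input background plus 1 (purple bars), which add up to it. At Prdx6 the background part is 1.00 and the pileup part 0.06, and at Txndc15 and Mgst1 the parts have opposite signs.

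Other genes of glutathione and redox metabolism, 43 in all, were looked up in the same way. Of these, 8 had a peak within 5 kb in the vehicle list (18.6%) and 15 in the FGF19 list (34.9%), with 7 in both, beside 7.93% and 16.3% of all protein-coding genes. Regulators of the antioxidant response were among them. Nfe2l2, which encodes Nrf2, had an FGF19 peak 6 bp before its TSS (pileup 26, fold enrichment 5.68), and Bach1, its competitor at the same element, had promoter peaks in both lists (fold enrichment 3.28 and 4.74). Mafg was counted through a peak 90 bp from the TSS of Sirt7 with FGF19 (fold enrichment 3.39), and Keap1, the inhibitor of Nrf2, had none.

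Sepp1, Sephs2, Secisbp2 and Sepx1 had peaks in both lists. Sepp1, which encodes the selenium carrier of plasma, had fold enrichments of 12.86 with vehicle and 13.17 with FGF19 and a pileup of 64 in both, in exons far from its TSS. Sephs2, for selenophosphate synthesis, had 5.04 and 4.96, and Secisbp2, which binds the selenocysteine insertion element, had 3.99 and 3.22 at its promoter. Sepx1, a methionine sulfoxide reductase, had a 3′ untranslated peak in both lists (4.35 and 4.52) and a promoter peak with vehicle only (4.45).

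Of the remaining genes on that list, Cdo1, which oxidises cysteine, had a peak near its TSS (6.01 with vehicle and 6.34 with FGF19) and in its 3′ untranslated region (6.41 and 6.20). The export pump Abcc2 had intron peaks at different places in the lists (5.01 and 4.17). Srxn1, which reactivates peroxiredoxins, had a promoter peak with FGF19 only (4.61), as did Ggct (5.13), Abcc4 (5.35), Slc25a39 (4.12), Glrx3 (3.72) and Hagh (3.29). Idh1 had a promoter peak with vehicle only (3.00). All values in this paragraph are fold enrichments in 1 library each.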

How the data were processed

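SHP ChIP-seq libraries of mouse liver and their inputs were aligned to mm9 by the authors with Bowtie 1.0.0 with up to 2 mismatches, after CASAVA 1.8.2, and each group's peaks were called over its matched input with MACS2 2.0.10.20130501 (q-value cutoff 0.05, 1 tag kept per position and strand). The deposited signal, or pileup, counts extended ChIP tags over the summit. The deposited fold enrichment is a ratio from the authors' peak caller, and the −log10 p and −log10 q values are deposited as it wrote them. Local input background was computed as (pileup + 1) / fold enrichment − 1.

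The genes, the related gene list, the settings and the alternatives were chosen with earlier results of these data known. Every gene with a peak within 5 kb is named with values and the others by symbol. Peaks were related to 95495 transcripts of GENCODE M1 and to mm9 sequence. Common peaks shared at least 1 bp, and the strongest peak on each side was compared. Pileup ratios have exact binomial intervals. Copies were sought with BLAST 2.17.0 (at least 95% identity over 100 bp). Simulated data were used to test the interval, overlap and motif steps, which passed 3 of 3 checks. The analysis ran in Python 3.11.15 with scipy 1.17.1, pandas 2.3.3, numpy 2.4.6, matplotlib 3.10.9 and pyfaidx 0.9.0.4. No test across genes was possible with 1 library per group. Alternatives covered the window, thresholds, overlap, location, measure of strength and motif window.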

Additional observations from a re-analysis of the deposited data

How the results depend on the processing

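No paired analysis was possible because each group is 1 pooled library, and for the same reason no library could be left out. Of 100 alternatives, 88 stayed within 1.5 times the reported count, the 95% interval of the reported share or the quartiles of the reported values, which are wide for so few peaks. Some of the 88 had no way to move. Shortening the FGF19 list leaves the vehicle counts as they were, and pileup over the genome-wide expectation ranks peaks as pileup does. The 88 are thus not separate checks. With summits within 1 kb of a gene's own TSS, 6 genes and 7 peaks counted in the vehicle list, 18 peaks in the FGF19 list, and 4 genes in both. With peaks given to the nearest coding TSS, 8 genes were in both lists. In the FGF19 list shortened to the vehicle list's length, 19 peaks lay at these genes. At common regions the median log2 ratio was 0.03 by pileup and −0.31 for the input background, beside 0.26 by fold enrichment. Within 50 bp of the summit, the antioxidant response element core was in 6.25% of the FGF19 peaks, the SP1 sequence in 0 of 19 and 0 of 32 peaks (0%), and AGGTCA in 0% of the FGF19 peaks. Over whole peaks CACGTG was in 18.8% of the FGF19 peaks. At these other windows no share of all peaks was computed. Pileups of 13 to 88 tags limit every comparison, and the spread between mice is unknown.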
